A study of Saccharomyces cerevisiae with 16 samples.

Results

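The effect of the translation inhibitor cycloheximide on the yeast transcriptome was compared between cells deprived of glucose and cells kept in glucose. For each feature the log2 difference between drug and solvent in glucose was subtracted from that in starvation, and the result is called the interaction. It is above 0 where the drug effect was higher in starvation, and it also equals the starvation response with the drug minus the response without it. Members were all 11997 features of the table other than ERCC spike-ins, of 12089 features in all, measured in 8 of the 16 libraries of the series. The rule itself uses no measured value, though it was set with earlier results of these data known.

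Stranded libraries of total RNA were sequenced from the haploid strain YAM1 of Saccharomyces cerevisiae (MATa his3Δ1 leu2Δ0 met15Δ0 ura3Δ0). Cells growing in CSM medium with glucose spent 16 min either in glucose or in CSM in which glycerol and ethanol took its place, called starvation here. Then cycloheximide at 100 µg/ml, or the same volume of its solvent DMSO, was added. This gave 4 groups of 2 libraries, which the series' design text calls biological replicates. All 4 groups carry the same auxotrophic alleles and come from 1 strain, and the labels used here do not give the time of exposure to the drug. The remaining 8 libraries, from upf1 and xrn1 deletion strains with and without glucose, entered the estimate of the spread and define gene classes near the end.

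Cycloheximide binds the large ribosomal subunit and stops translocation, so that ribosomes stay on mRNAs and synthesis of all cytosolic proteins halts. Translation and mRNA decay are linked in yeast, and many mRNAs are known to last longer when elongation is blocked. Within minutes of glucose loss, yeast lowers translation initiation, turns down the genes for ribosomes and turns on genes for respiration and the use of other carbon sources, through the kinases PKA and Snf1 and factors such as Msn2, Hap4, Cat8 and Adr1. Once the drug is present, any later part of a transcript response that needs newly made protein is cut off. Parts that rest on proteins already in the cell can go on. Here the drug was added after the time in each medium, so protein made in starvation before that point was not blocked. Whether a starvation response needed new protein was thus not tested.

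Values are reads per nucleotide of each feature, on a scale fixed by the authors. Reads on open reading frames (ORFs), estimated from the steps between values, numbered 6.94 to 19.2, in units of 1e6 reads, per library. By this estimate the shallowest group was starved cells with the drug. Only 73.1 to 84.3% of low ORFs gave whole numbers of reads, so the depths are approximate. The spike-ins summed to 307 to 317 in these libraries, and since these were added per mass of total RNA, levels are not per cell. In such bulk samples, fewer cells and less RNA per cell cannot be told apart. Of the 7 genes specific to mating type a, all were present (ASG7, the lowest, at 0.0565 to 1.36), while the alpha pheromone genes MF(ALPHA)1 and MF(ALPHA)2 reached at most 0.0266 and 0.0294 in any of the 8 libraries. The other 3 alpha-specific genes were higher, STE3 at 0.0319 to 0.234, SAG1 at 0.0673 to 0.492 and AFB1 at 0.0735 to 0.495, so that SAG1 and AFB1 lay in the range of ASG7. In the column names of the table, the cycloheximide libraries carry another prefix (D940) than the DMSO libraries (D1277). Its meaning is not given in the sources used here, so a drug effect in 1 medium cannot be told apart from what the prefix stands for. An offset common to all libraries of a prefix cancels in the interaction.

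The drug raised most mRNAs in both media, by more in glucose than in starvation. The median over protein-coding genes was 0.218 and 0.228 reads per nucleotide in the libraries of glucose with DMSO, and 1.09 and 0.949 with cycloheximide. In starvation it was 0.181 and 0.171 with DMSO, and 0.469 and 0.425 with cycloheximide. The 4 groups did not overlap, and the starved cells with the drug stood between the other drug group and both solvent groups. The median log2 effect of the drug over protein-coding genes was 2.05 in glucose and 1.31 in starvation. In glucose 98.8% of the 5814 protein-coding genes tested rose (5743) and 0.0516% fell (3). In starvation 80.3% rose (4669) and 10.2% fell (591).

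The interaction was below 0 for most features on this scale. Of 11599 features tested with limma (Benjamini-Hochberg adjusted p under 0.05), 7075 (61%) had an interaction below 0 and 239 (2.06%) one above 0. Among protein-coding genes the numbers were 4110 (70.7%) below and 149 (2.56%) above, with a median of -0.80. When libraries were scaled to their protein-coding genes instead, the median interaction of all features moved up by 0.75, and 1755 protein-coding genes (30.2%) lay below 0 and 1498 (25.8%) above. Over all features that split was 2782 (24%) and 1962 (16.9%). Values below are therefore also given relative to the protein-coding median, and counts of each gene group are given on both scales. These counts are to be read against 70.7% below and 2.56% above 0 as deposited, and 30.2% and 25.8% at the protein-coding scaling.

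The genes differed in whether the drug acted the same way in both media. On the deposited scale 4656 protein-coding genes rose with the drug in both, 513 rose in glucose and did not pass in starvation, and 574 (9.87%) rose in glucose but fell in starvation. Their interaction was below 0 by the way they were chosen, and it passed the test in all 574. They held 128 of the 137 cytosolic ribosomal protein genes, 86 of 103 ribosome assembly factors and 20 of 48 translation factors. They also held 21 of 63 amino acid biosynthesis genes and 10 of 31 genes for RNA polymerases I and III, followed by 6 of 21 glycolysis, 6 of 35 chaperone and heat shock, and 6 of 41 cell cycle genes. Each of the other 17 lists had 0 to 2 members among them. Scaled to protein-coding genes, the drug effect passed up and down in 38% and 33.7% of protein-coding genes in glucose and in 42.7% and 35.7% in starvation. By that scale 226 genes went up in glucose and down in starvation, 285 went down in glucose and up in starvation, 1580 went up in both and 1387 down in both. Across 5478 protein-coding genes with a mean of at least 0.05, the drug effects in the 2 media had Pearson's r of 0.61 and Spearman's rho of 0.63. These are values across genes, which are not independent. The 2 effects share no library, but both compare the D940 with the D1277 prefix. A difference of single genes that goes with the prefix would enter both effects and raise these values.

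**Figure D1:**
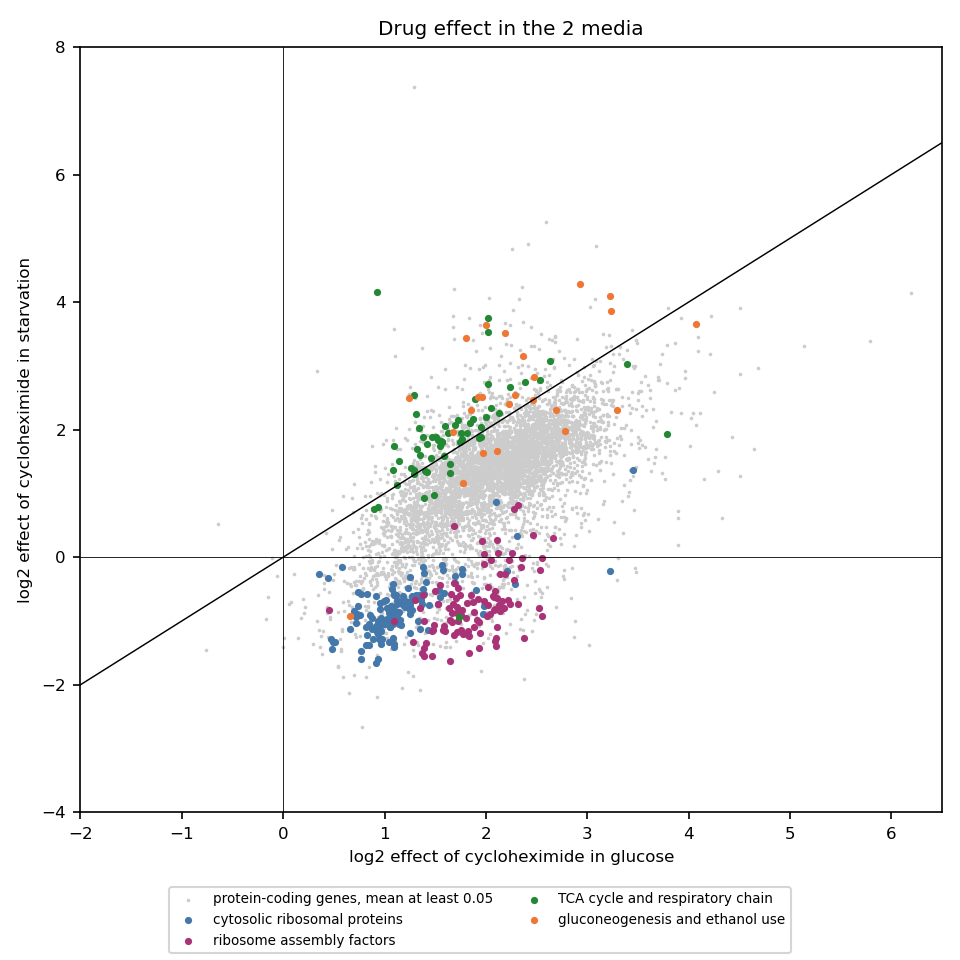
Log2 effect of cycloheximide in glucose (x axis) and in starvation (y axis) for 5478 protein-coding genes with a mean of at least 0.05 (grey), with 4 gene lists in colour, on the deposited scale. The diagonal marks equal effects. Most ribosomal protein and ribosome assembly genes lie right of 0 on the x axis and below 0 on the y axis, while most genes of the TCA cycle and respiratory chain lie near or above the diagonal. OYE3 is the grey point at the top.

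Read as a starvation response, the same 4 groups showed a wider range of changes when the drug was present. Without it, 3083 protein-coding genes (53%) fell and 625 (10.7%) rose, with a median of -0.42. With it, 4694 (80.7%) fell and 459 (7.89%) rose, with a median of -1.16. Over the 5478 genes the SD of the log2 response was 0.74 without the drug and 1.27 with it. The 2 responses, which share no library, had r = 0.83 and rho = 0.82 across genes. The genes thus kept a similar order, and the distance between the highest and lowest was larger with the drug.

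The gene with the most positive interaction was OYE3 (YPL171C, chromosome XVI, 226169 to 227371 on the minus strand in R64), which encodes an NADPH dehydrogenase of the old yellow enzyme family linked to oxidative and electrophile stress. It lay at 0.0179 and 0.0113 reads per nucleotide in glucose with DMSO, at 0.0411 and 0.0395 in glucose with cycloheximide, at 0.0526 and 0.0357 in starvation with DMSO, and at 8.12 and 7.50 in starvation with cycloheximide. Only the starved cells with the drug were high, and the other 3 groups reached at most 0.0526. The drug effect was 1.29 in glucose and 7.37 in starvation, an interaction of 6.08 ± 0.29 (SE, limma adjusted p = 7.15e-09). Starvation raised OYE3 by 1.39 without the drug and by 7.47 with it.

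HBN1 (YCL026C-B), a putative nitroreductase, lay at 0.128, 0.111, 0.161 and 0.142 in the glucose libraries, DMSO first, at 0.150 and 0.123 in starvation with DMSO, and at 1.15 and 0.976 in starvation with the drug. The 6 libraries of the other groups lay close together, and both with the combination stood well above them. The drug effect in glucose was 0.33 and did not pass (adjusted p = 0.113), that in starvation was 2.93, and the interaction was 2.60 ± 0.27 (SE, limma adjusted p = 4.88e-06). ECM4 (YKR076W), a glutathione-dependent quinone reductase, lay at 0.165 and 0.156 in glucose, at 0.893 and 0.682 with the drug, at 0.252 and 0.202 in starvation, and at 6.92 and 6.14 in starvation with the drug. Here the drug also raised the level in glucose, by 2.26, against 4.83 in starvation (interaction 2.57 ± 0.23). OSI1 (YKL071W), annotated as an aldehyde reductase, lay at 0.0119 and 0.0187, 0.115 and 0.0805, 0.0249 and 0.0199, and 0.815 and 0.741 in the same order of groups (interaction 2.49 ± 0.29). YML131W, which resembles medium-chain dehydrogenases and reductases, reached 12.5 and 11.7 in starvation with the drug against 0.226 to 0.799 in the other 6 libraries (2.52 ± 0.17).

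The other 5 of the 10 most positive genes belong to nutrient use. RGI2, a gene of respiratory energy metabolism that glucose represses, was listed at 0 and 0.00569 in glucose, at 0.00661 and 0.00852 with the drug, at 0.365 and 0.276 in starvation, and at 5.73 and 5.74 in starvation with the drug. Both starved groups were high, the one with the drug more so, and the interaction of 3.23 ± 0.57 rests on glucose values near the pseudocount. With a pseudocount 10 times smaller it was 1.78 and did not pass. FAT3, a protein needed for fatty acid uptake (2.65 ± 0.26), and FIT2, a cell wall mannoprotein that retains iron-siderophores (2.49 ± 0.27), stood at 1.69 and 1.53 and at 2.32 and 1.66 in starvation with the drug, against at most 0.168 and 0.296 elsewhere. ATO2, a putative ammonium permease, reached 4.35 and 3.77 against 0.0757 to 0.296 (2.12 ± 0.14). GAP1, the general amino acid permease, differed from the others in that starvation without the drug lowered it, from 0.368 and 0.385 to 0.181 and 0.176, while starvation with the drug raised it, from 1.81 and 1.32 to 3.28 and 2.81 (2.04 ± 0.21). The choice of these 10 required a larger drug effect in starvation than in glucose for every pairing of libraries. All also had a positive interaction at the protein-coding scaling, which moved the median interaction of all features up by 0.75.

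**Figure D2:**
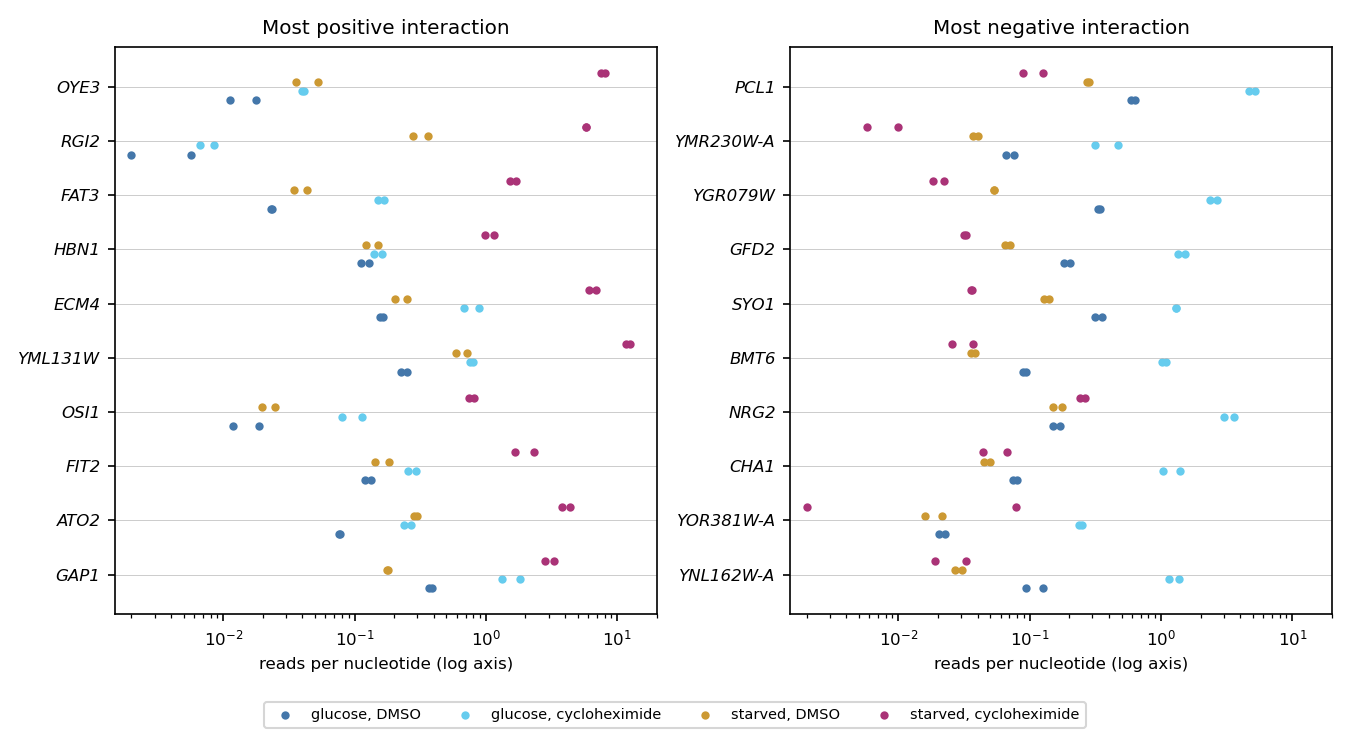
Reads per nucleotide (log axis) in each of the 8 libraries for the 10 protein-coding genes with the most positive interaction (left) and the 10 with the most negative (right), 1 point per library, coloured by group. Values below 0.002, zeros included, are drawn at 0.002. On the left the starved libraries with the drug are the highest for every gene. On the right the glucose libraries with the drug are the highest for every gene.

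The promoters of 4 of these genes, OYE3, HBN1, ECM4 and OSI1, held the heptamer TTACTAA or its reverse complement TTAGTAA, the core of the elements bound by the oxidative stress factor Yap1. The heptamer was looked for after the values had been seen. The windows below give the coding-strand sequence of each gene, 5′ to 3′, over 300 bases that end 100 bases before the ORF, from the R64 genome, and are shown because they carry these matches, which stand in capitals.

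OYE3, chrXVI:227472-227771, minus strand: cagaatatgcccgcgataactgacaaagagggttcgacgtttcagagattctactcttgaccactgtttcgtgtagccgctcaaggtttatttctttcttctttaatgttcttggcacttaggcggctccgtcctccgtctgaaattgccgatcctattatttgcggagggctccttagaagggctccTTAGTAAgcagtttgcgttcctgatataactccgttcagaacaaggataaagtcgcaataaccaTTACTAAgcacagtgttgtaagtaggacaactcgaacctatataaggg
HBN1, chrIII:74087-74386, minus strand: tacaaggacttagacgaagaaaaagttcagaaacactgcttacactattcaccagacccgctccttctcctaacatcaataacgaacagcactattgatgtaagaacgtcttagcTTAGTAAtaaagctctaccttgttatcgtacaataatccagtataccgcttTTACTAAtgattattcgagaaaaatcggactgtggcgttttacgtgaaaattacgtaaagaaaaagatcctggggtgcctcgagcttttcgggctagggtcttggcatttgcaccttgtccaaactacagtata
ECM4, chrXI:581883-582182, plus strand: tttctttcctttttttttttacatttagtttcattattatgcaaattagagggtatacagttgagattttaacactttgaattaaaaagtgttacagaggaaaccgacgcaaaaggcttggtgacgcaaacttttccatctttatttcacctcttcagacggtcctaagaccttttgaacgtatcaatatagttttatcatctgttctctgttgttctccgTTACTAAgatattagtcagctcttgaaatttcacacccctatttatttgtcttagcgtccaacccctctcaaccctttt
OSI1, chrXI:304714-305013, plus strand: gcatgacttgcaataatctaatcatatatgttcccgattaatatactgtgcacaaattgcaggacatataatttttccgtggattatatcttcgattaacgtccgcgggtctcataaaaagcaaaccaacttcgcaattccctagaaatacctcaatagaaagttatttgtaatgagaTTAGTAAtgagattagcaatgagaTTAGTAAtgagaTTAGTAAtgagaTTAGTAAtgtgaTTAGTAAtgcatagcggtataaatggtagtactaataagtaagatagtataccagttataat

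OYE3 and HBN1 hold 2 matches each, ECM4 1 and OSI1 5, the latter from 222 to 162 bases before the ORF. None of the 10 genes with the most negative interaction held one (0 of 10). Over all 5814 protein-coding genes 6.95% of windows held the heptamer, against 10.9% of the 274 genes (4.71% of those tested) with a passing interaction of at least 1 at the protein-coding scaling and 6.18% of the 696 (12%) with one of at most -1. The stress response element (AGGGG or CCCCT) was present in 44.5% of the 274 windows, 17% of the 696 and 24% of all. The core of the PAC element of ribosome assembly genes (GATGAG or CTCATC) was present in 12.8%, 34.8% and 17.9%. The 2 matches of the stress element in ECM4 do not overlap its heptamer. These shares describe letters in the windows and not binding.

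Of the genes at the negative end, PCL1 (YNL289W, chromosome XIV, 87897 to 88736 on the plus strand), a G1 cyclin of the kinase Pho85, came first. It lay at 0.585 and 0.627 in glucose, at 5.21 and 4.69 in glucose with cycloheximide, at 0.274 and 0.284 in starvation, and at 0.125 and 0.0888 in starvation with cycloheximide. The drug thus went with the highest level in one medium and the lowest in the other. Its effect was 3.02 in glucose and -1.37 in starvation, an interaction of -4.39 ± 0.22 (SE, limma adjusted p = 7.24e-09).

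Of the other 9, SYO1 and BMT6 act on ribosomes. SYO1, the chaperone that carries the ribosomal protein Rpl5 into the nucleus, lay at 0.314 and 0.353, 1.30 and 1.30, 0.127 and 0.140, and 0.0362 and 0.0358 in the same order of groups (interaction -3.74 ± 0.16). The order of the 4 groups was that of PCL1. BMT6, a methyltransferase of the large-subunit rRNA, rose in glucose from 0.0883 and 0.0942 to 1.09 and 1.02, while in starvation it stood at 0.0356 and 0.0382 without and at 0.0367 and 0.0256 with the drug (-3.72 ± 0.22, drug effect in starvation -0.24, adjusted p = 0.178). The ribosomal protein gene RPL22A, 208 bases from BMT6 on the same strand, had an interaction of -2.45. PER33, 201 bases from BMT6 on that strand, had -1.08. The PAC core was present in 3 of the 10 most negative genes (GFD2, SYO1 and CHA1). It was also in 2 of the 10 most positive (FAT3 and GAP1), against 17.9% of all windows. The SYO1 window is shown because it holds this core 6 times in overlapping copies of 1 tandem repeat, in capitals.

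SYO1, chrIV:340235-340534, minus strand: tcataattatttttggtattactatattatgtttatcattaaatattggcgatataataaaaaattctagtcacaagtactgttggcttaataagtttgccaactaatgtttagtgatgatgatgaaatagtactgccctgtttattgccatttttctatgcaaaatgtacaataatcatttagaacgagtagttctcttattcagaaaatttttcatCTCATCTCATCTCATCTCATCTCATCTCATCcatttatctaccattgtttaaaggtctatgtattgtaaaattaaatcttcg

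GFD2 (-3.88 ± 0.18), found as a suppressor of a mutant of the RNA helicase Dbp5, and YGR079W (-4.13 ± 0.16), of unknown function, rose in glucose by 2.88 and 2.87 and fell in starvation by 1.00 and 1.25. NRG2, a repressor of glucose-repressed genes, rose from 0.151 and 0.170 to 3.58 and 3.0 in glucose, and from 0.150 and 0.176 to 0.241 and 0.262 in starvation. Its starvation response without the drug was 0.02 and did not pass, and its drug effects were 4.32 in glucose and 0.62 in starvation (interaction -3.70 ± 0.19). CHA1, the serine and threonine deaminase, rose by 3.90 in glucose and had a drug effect of 0.19 in starvation that did not pass (-3.70 ± 0.29).

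The remaining 3 are small ORFs whose values call for care. YMR230W-A (-4.27 ± 0.39) starts 126 bases after the ribosomal protein gene RPS10B on the same strand, whose own interaction was -1.94, and stood at 0.00994 and 0.00573 in starvation with the drug, near the pseudocount. PEP5, 88 bases from YMR230W-A on that strand, had -0.94. YNL162W-A (-3.64 ± 0.28) has no other RefSeq ORF of the table within 500 bases on its strand. Noncoding features were not searched. YOR381W-A (-3.65 ± 1.32, adjusted p = 0.0284) had 0.0782 and 0 in the 2 starved libraries with the drug. It lost its call at the protein-coding scaling (adjusted p = 0.112) and in the 6 fits that left out 1 library of the other 3 groups (adjusted p 0.0506 to 0.0687).

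Genes for making ribosomes formed the lowest group. Of 103 ribosome assembly factors 103 had an interaction below 0 on the deposited scale and 103 at the protein-coding scaling, with a median of -2.66, or -1.86 relative to all protein-coding genes. Their drug effect had a median of 1.89 in glucose and -0.79 in starvation. The lowest was SSF1, a factor of large-subunit maturation, at 0.334 and 0.336, 1.84 and 1.67, 0.179 and 0.156, and 0.0609 and 0.0747 (-3.63 ± 0.18; its paralog SSF2 is close in sequence, so reads may be shared). The highest was TIF6, which keeps the subunits apart, with -1.20 ± 0.10 and a drug effect above 0 in starvation (0.48). The list thus ranged widely in size while all its members lay on one side.

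Cytosolic ribosomal protein genes went the same way. All 137 had an interaction below 0, and 134 did at the protein-coding scaling (median -1.99, relative -1.19), with a drug effect whose median was 1.07 in glucose and -0.87 in starvation. RPS9A went furthest, from 0.646 and 0.650 to 6.56 and 5.67 with the drug in glucose, and from 0.245 and 0.266 to 0.235 and 0.204 in starvation (-3.45 ± 0.14). It is also one of a pair with near-identical coding sequence. RPS22B moved least, at -0.63 ± 0.23 as deposited and 0.15 at the protein-coding scaling (adjusted p = 0.693), and the first call was lost without the second DMSO library of either medium, the first glucose or the second starved library with the drug (adjusted p 0.0836 to 0.138). Many ribosomal protein genes come in such pairs, between which reads may be split.

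The 31 genes for RNA polymerases I and III, which make rRNA and tRNA, had 31 interactions below 0 (26 at the protein-coding scaling, relative median -0.91). RPA43, a polymerase I subunit, fell in starvation from 0.233 and 0.203 to 0.0761 and 0.0949 and rose in glucose from 0.452 and 0.463 to 1.51 and 1.50 (-3.03 ± 0.17). RRN9, a polymerase I initiation factor gene, had -0.52 ± 0.15 as deposited and 0.26 at the protein-coding scaling (adjusted p = 0.145). Of 48 translation factors 45 lay below 0 and 0 above (40 and 3 at the protein-coding scaling, relative median -0.83). YEF3, the fungal elongation factor 3, lay at 32.3 and 33.6 in glucose, 53.2 and 49.9 with the drug, 17.6 and 18.0 in starvation, and 3.90 and 4.27 in starvation with the drug (-2.77 ± 0.12). The drug thus went with a slightly higher level in glucose and a much lower one in starvation. DBP1, a stress-linked relative of the helicase Ded1, was the highest, at 0.40 ± 0.25 as deposited (adjusted p = 0.175) and 1.15 at the protein-coding scaling.

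Amino acid biosynthesis genes had 56 of 63 interactions below 0 and 2 above (39 and 12 at the protein-coding scaling, relative median -0.44). LEU9, an isopropylmalate synthase of leucine synthesis, was the lowest, at 0.907 and 0.929, 2.34 and 2.17, 0.462 and 0.445, and 0.154 and 0.150 (-2.85 ± 0.11). BAT2, the cytosolic aminotransferase of branched-chain amino acids, was the highest, with 6.36 and 4.91 in starvation with the drug against 0.462 and 0.451 without (1.93 ± 0.20). Both act in branched-chain amino acid metabolism, and they stand at opposite ends of the list.

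Cell cycle regulators had 36 of 41 interactions below 0 and 0 above (25 and 4 at the protein-coding scaling, relative median -0.38), PCL1 the lowest and the G1 transcription factor gene SWI4 the highest (0.10 ± 0.27, adjusted p = 0.755, and 0.89 at the protein-coding scaling). Genes specific to mating type a lay below 0 in 7 of 7 cases on both scales (relative median -1.28). BAR1, the protease that degrades alpha factor, rose with the drug in glucose from 1.44 and 1.46 to 9.09 and 8.42 and stood in starvation at 0.570 and 0.581 without and 0.546 and 0.523 with the drug (-2.69 ± 0.12). AGA2, a subunit of the a-agglutinin, had the mildest value, -1.97 ± 0.20. Pheromone signalling genes had 20 of 24 below 0 and 0 above (13 and 1 at the protein-coding scaling, relative median -0.53), from PRM1, a membrane protein of cell fusion (-3.05 ± 0.24), to DIG2, an inhibitor of the mating factor Ste12 (0.05 ± 0.22, adjusted p = 0.863, and 0.83 at the protein-coding scaling). The 5 genes specific to mating type alpha had 2 below 0 and none (0) above, and 0 either way at the protein-coding scaling, STE3 at -1.01 ± 0.29 and AFB1 at -0.62 ± 0.23 as deposited and -0.23 and 0.16 after that scaling. AFB1 lost its call without the second glucose or first starved DMSO library or the second drug library of either medium (adjusted p 0.0742 to 0.115).

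The phosphate regulon had 19 of 20 interactions below 0 and 0 above (13 and 1 at the protein-coding scaling, relative median -0.51). PHO84, the high-affinity phosphate transporter, rose with the drug in glucose from 1.35 and 1.74 to 10.6 and 11.4 and fell in starvation from 0.578 and 0.644 to 0.406 and 0.374 (-3.48 ± 0.21). PHO85, the kinase gene of the pathway, had -0.38 ± 0.13 as deposited and 0.40 at the protein-coding scaling (adjusted p = 0.0159), so that its direction rests on the scale. The first call was lost without the first DMSO library of either medium, the first glucose or the second starved library with the drug (adjusted p 0.0593 to 0.0797).

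Genes for respiration and for carbon sources other than glucose formed the highest groups. The 59 genes of the TCA cycle and respiratory chain had 14 interactions above 0 and 4 below as deposited, and 56 and 2 at the protein-coding scaling, with a median of 0.25, or 1.05 relative to all protein-coding genes. The drug raised 59 of them in glucose and 58 in starvation, against 98.8% and 80.3% of all protein-coding genes. RGI2 was the highest. Outside the rule for named genes and chosen after their values were seen, NDE2, a mitochondrial external NADH dehydrogenase, and CIT3, a mitochondrial citrate and methylcitrate synthase, reached 1.49 and 1.15 and 1.95 and 1.84 in starvation with the drug against at most 0.300 and 0.203 in the other libraries (1.72 ± 0.28 and 1.51 ± 0.23). COX5A, a subunit of cytochrome oxidase picked the same way, was typical of the list, at 1.29 and 1.40, 4.19 and 3.80, 1.00 and 0.962, and 3.66 and 3.25 (0.24 ± 0.13, adjusted p = 0.135).

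Gluconeogenesis and ethanol use had 9 of 24 interactions above 0 and 4 below (16 and 1 at the protein-coding scaling, relative median 1.12). REG2, a regulatory subunit of the phosphatase Glc7 in glucose repression, was the highest, at 0.0216 and 0.0206, 0.0898 and 0.0764, 0.110 and 0.0883, and 1.17 and 1.05 (1.64 ± 0.32). JEN1, the lactate and pyruvate permease, was nearly level with it and is named after its values were seen. It rose from 0.0344 and 0.0333 in glucose to 0.891 and 0.691 in starvation, and from 0.162 and 0.133 to 10.1 and 9.47 when the drug was present (1.64 ± 0.20). Both genes were raised by starvation and by the drug alone, and more by the 2 together than the sum of these log2 changes. MAE1, the mitochondrial malic enzyme, was the lowest of the list and fell with the drug in starvation from 0.598 and 0.583 to 0.316 and 0.304 (-1.58 ± 0.12).

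Glucose-repressed genes of sugar use had 5 of 19 above 0 and 5 below (12 and 1 at the protein-coding scaling, relative median 0.62). MAL32, a maltase whose copy MAL12 is near-identical, had 1.42 ± 0.34, a call that was lost with a pseudocount 10 times smaller, and IMA5, an isomaltase, had -1.49 ± 0.30. Hexose transporters had 2 of 14 above 0 and 3 below (4 and 1 at the protein-coding scaling, relative median 0.45). HXT1, the low-affinity transporter of cells in high glucose, rose with the drug in glucose from 2.99 and 3.03 to 7.40 and 7.02 and fell in starvation from 5.16 and 4.69 to 2.71 and 3.11 (-2.02 ± 0.13). HXT13, with 1.22 ± 0.44, lay at or below 0.0598 in all 8 libraries and is near-identical to HXT17. Its call was lost without the first DMSO library of either medium, the second glucose or the first starved library with the drug (adjusted p 0.0859 to 0.127), with a pseudocount 10 times smaller (0.236) and with the 4 groups alone (0.0869). Genes of glucose signalling and repression had 1 of 40 above 0 and 22 below (19 and 8 at the protein-coding scaling, relative median 0.24). The one above was CAT8, the activator of gluconeogenic genes, at 0.0281 and 0.0317, 0.115 and 0.0980, 0.253 and 0.192, and 1.46 and 1.39 (0.97 ± 0.23), and the lowest was the repressor gene NRG2.

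Nitrogen catabolite repression genes, which yeast turns on when good nitrogen sources run out, had 6 of 32 interactions above 0 and 11 below (18 and 2 at the protein-coding scaling, relative median 0.57). GAP1 was the highest and UGA3, the activator of GABA use, the lowest (-1.18 ± 0.20). Autophagy genes had 2 of 28 above and 8 below (13 and 3, relative median 0.30). ATG41, an autophagy gene induced by starvation, rose from 0.394 and 0.383 to 3.20 and 3.31 when glucose was withdrawn, but with the drug only from 1.78 and 1.71 to 2.06 and 2.71 (-2.62 ± 0.20). ATG33, needed for mitophagy, was the highest, at 0.51 ± 0.19, a call lost without either starved DMSO library, the first glucose DMSO library, the second glucose or the first starved library with the drug (adjusted p 0.063 to 0.121).

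**Figure D3:**
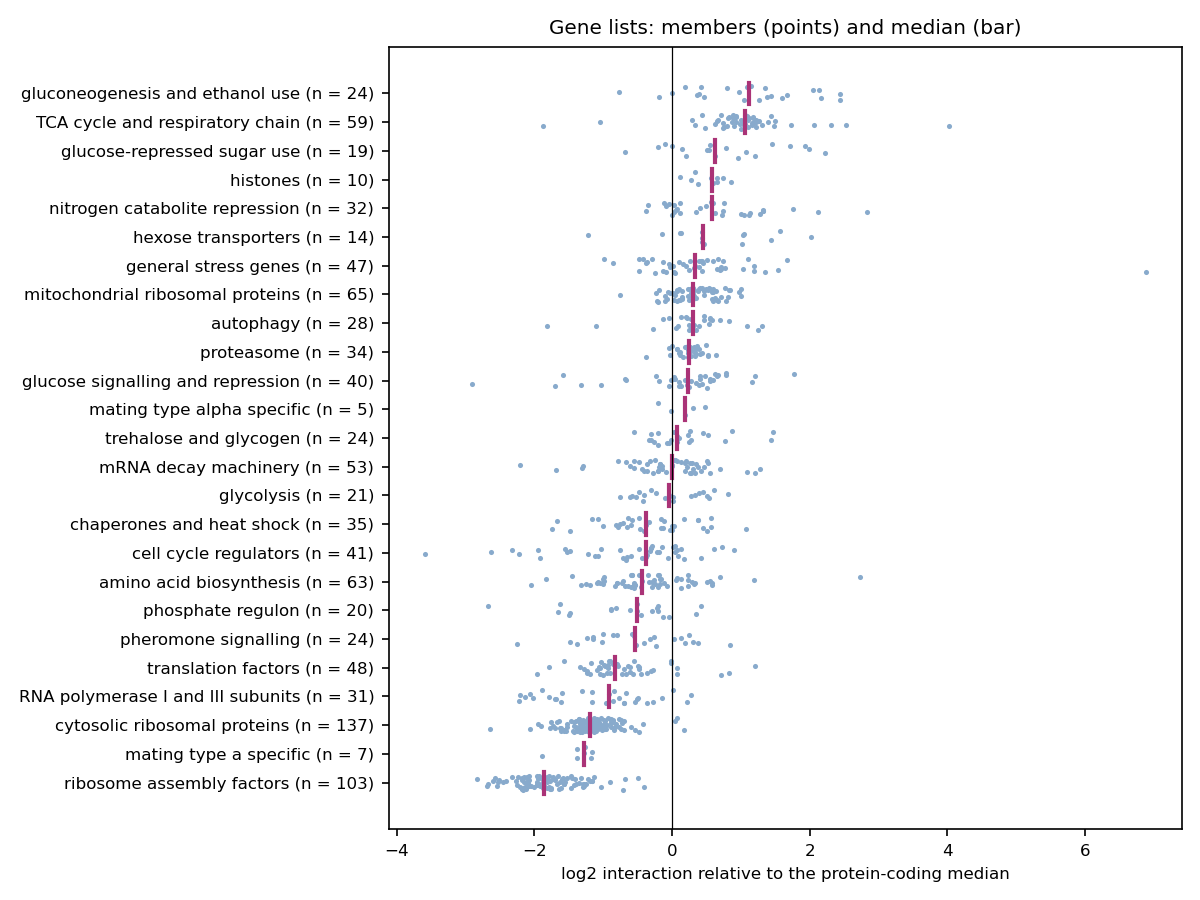
Log2 interaction of each gene relative to the protein-coding median (x axis), for the 25 gene lists ordered by their median, 1 point per gene with random vertical spread, bars at the list medians. Ribosome assembly factors have the lowest median (-1.86) and gluconeogenesis and ethanol use the highest (1.12). The point near 7 among general stress genes is OYE3, and a gene on 2 lists is drawn in both.

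Chaperone and general stress genes are set beside the 70.7% of all protein-coding genes with an interaction below 0 as deposited. Of 35 chaperone and heat shock genes 28 had an interaction below 0, a share near that background, and 0 above (18 and 5 at the protein-coding scaling, relative median -0.38). The lowest, SSB1, a ribosome-bound Hsp70 with a near-identical copy SSB2, fell with the drug in starvation from 11.4 and 11.7 to 3.10 and 3.33, after a rise in glucose from 19.6 and 20.3 to 33.3 and 31.3 (-2.54 ± 0.10). HSP26, a small heat shock protein gene, was the highest, at 0.27 ± 0.17 (adjusted p = 0.177) and 1.05 at the protein-coding scaling. The stress-induced Hsp70 gene SSA4, chosen after its values were seen, rose in starvation without the drug from 0.285 and 0.319 to 3.54 and 3.38, and with it from 2.15 and 1.62 to 4.15 and 4.55 (-2.29 ± 0.24). Its starved groups were close to each other, and its drug effect in starvation was 0.33 (adjusted p = 0.0927).

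Of 47 general stress genes 4 had an interaction above 0 and 23 below (22 and 8 at the protein-coding scaling, relative median 0.33), from OYE3 to CTT1. CTT1, the cytosolic catalase, lay at 0.191 and 0.215, 2.83 and 2.03, 1.38 and 1.12, and 4.68 and 3.77 (-1.79 ± 0.23), so that the highest values came with both treatments but the drug effect was larger in glucose. Trehalose and glycogen genes had 1 of 24 above and 17 below (7 and 4, relative median 0.07). TPS2, the trehalose phosphatase, was the lowest (-1.36 ± 0.20) and ATH1, the acid trehalase, the highest (0.66 ± 0.24), a call lost without either glucose DMSO library, the second starved DMSO library, the second glucose or the first starved library with the drug (adjusted p 0.0543 to 0.109). Glycolysis genes had 0 of 21 above and 15 below (6 and 8, relative median -0.05). The pyruvate kinase gene CDC19 fell with the drug in starvation from 59.1 and 58.4 to 25.9 and 26.8 and rose in glucose from 78.1 and 83.1 to 111 and 101 (-1.56 ± 0.11), while TDH1, a glyceraldehyde phosphate dehydrogenase, had drug effects of 0.69 in glucose and 0.71 in starvation.

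The remaining 4 lists had relative medians from 0.00 to 0.57. Proteasome genes had 0 of 34 above and 27 below as deposited but 20 above and 1 below at the protein-coding scaling (relative median 0.25). The 1 below was RPN4, the transcription factor of the proteasome genes, which rose in starvation from 0.307 and 0.345 to 0.878 and 0.806 without the drug and stood at 1.87 and 1.61 and at 1.98 and 1.96 with it (-1.18 ± 0.16), whereas PRE1, a core particle subunit, had -0.16 ± 0.12 (adjusted p = 0.264) and 0.62 at that scaling. Mitochondrial ribosomal proteins had 0 of 65 above and 33 below, then 31 and 2 (relative median 0.30), with MRP10 at 0.20 ± 0.19 (adjusted p = 0.374) and 0.98 after scaling, and MRPL24 at -1.56 ± 0.22. Unlike the cytosolic ones, 65 of 65 rose with the drug in starvation, against 80.3% of all protein-coding genes. Histone genes had 0 of 10 above and 4 below, then 9 and 0 (relative median 0.57), with HHF2, whose copy HHF1 encodes the same protein, at 0.05 ± 0.14 (adjusted p = 0.747) and 0.83 after scaling, and HTB1 at -0.68 ± 0.14 and 0.10 after scaling (adjusted p = 0.305). The mRNA decay machinery had 0 of 53 above and 43 below, then 13 and 18 (relative median 0.00). Its lowest member, MTR4, the helicase of the nuclear exosome that also matures rRNA, fell with the drug in starvation from 0.261 and 0.265 to 0.0965 and 0.0969 and rose in glucose from 0.536 and 0.534 to 1.64 and 1.61 (-3.01 ± 0.14). Its highest, TIS11, an mRNA-binding protein of iron deficiency, had 0.48 ± 0.23 (adjusted p = 0.0871) and 1.25 after scaling.

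The mutant libraries gave an order of genes by their starvation response. They add no value to the interaction itself, but they share its estimate of the spread and the reference of the protein-coding scaling. Counts of passing interactions in classes drawn from them are thus not fully independent. In both upf1 and xrn1 cells 92 protein-coding genes (1.58%) rose at least 1 log2 unit with starvation at the protein-coding scaling, and 0 fell by as much. In wild type these 92 had a median starvation response of 2.95 without the drug and 3.79 with it, relative to all protein-coding genes, and a median relative interaction of 0.73. At the protein-coding scaling 52 of them (56.5%) had an interaction above 0 and 11 (12%) below, against 25.8% and 30.2% of all. A cutoff of 2 log2 units left 22 genes with a median of 1.21.

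Across all protein-coding genes in 10 equal groups (deciles) by the mean starvation change in the mutants, the relative interaction went from -0.81 in the lowest decile to 0.40 in the highest. The wild-type starvation response in these deciles went from -0.68 to 1.28 without the drug and from -1.58 to 1.70 with it, so that the range was wider on both sides. Ordered by level in upf1 cells in glucose, the relative interaction stayed between -0.02 and 0.09 in 9 deciles and was -0.47 in the highest. Ordered by coding length it went from 0.12 in the shortest decile to values between -0.06 and 0.06 in the others.

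**Figure D4:**
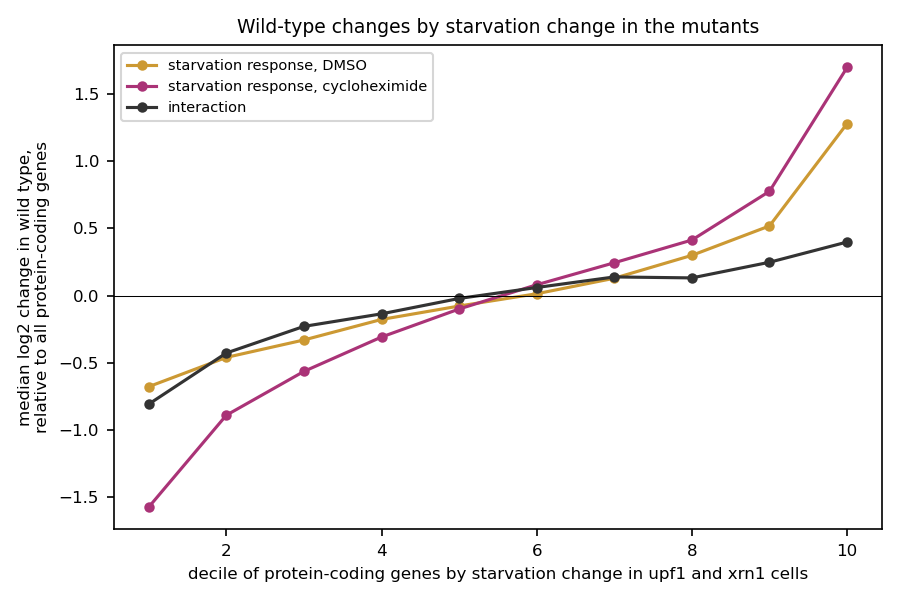
Median log2 change in wild type relative to all protein-coding genes (y axis), for deciles of 5814 protein-coding genes ordered by their starvation change in upf1 and xrn1 cells (x axis, lowest first). Lines show the starvation response with DMSO, the response with cycloheximide and the interaction. The line with the drug runs from -1.58 to 1.70 and is steeper than the one without, which runs from -0.68 to 1.28.

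Long noncoding RNAs shared the negative interaction of mRNAs. The table holds XUTs, which accumulate without the exonuclease Xrn1, SUTs, which are stable unannotated transcripts, CUTs, which the nuclear exosome degrades, and NUTs, which appear without the termination factor Nrd1. Interactions below and above 0 numbered 884 and 26 of 1624 XUTs (54.4% below), 467 and 21 of 830 SUTs (56.3%), 809 and 18 of 1432 NUTs (56.5%) and 480 and 6 of 902 CUTs (53.2%), with medians of -1.03, -0.92, -0.97 and -1.22. At the protein-coding scaling these numbers were 323 and 116 for XUTs, 187 and 85 for SUTs, 252 and 128 for NUTs, and 165 and 25 for CUTs. Over all features 61% lay below and 2.06% above 0 as deposited, and 24% and 16.9% at that scaling. The drug effect had a median of 2.05, 2.10, 1.78 and 1.43 in glucose, and of 1.01, 1.19, 0.71 and 0.18 in starvation, in that order. CUTs had the lowest drug effect of the 4 classes in both media. Relative to protein-coding genes, their median interaction of -0.42 changed sign with the pseudocount. It was 0.26 with one 10 times larger and -0.64 with one 10 times smaller. The median XUT lay at 0.0093 to 0.062 reads per nucleotide over the 8 libraries, not far above the pseudocount, and overlaps of these transcripts with genes could not be removed because their coordinates were not used here.

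By contrast the 76 snoRNAs had a median interaction of -0.03, with 10 below 0 and 2 above (1 and 33 at the protein-coding scaling). The share below 0 as deposited was 13.2%, against 61% of all features. Their drug effect had a median of -0.30 in glucose and -0.27 in starvation. The 51 mitochondrially encoded features had a median interaction of -0.57, with drug effects of -0.63 and -1.09. Of these 18 (35.3%) lay below 0 and 1 above, then 1 and 3 at the protein-coding scaling. The 270 tRNA features, which this kind of library samples poorly, had a median of -0.75. Of these 54 (20%) lay below 0 and 4 above, then 15 and 19 at the protein-coding scaling.

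**Figure D5:**
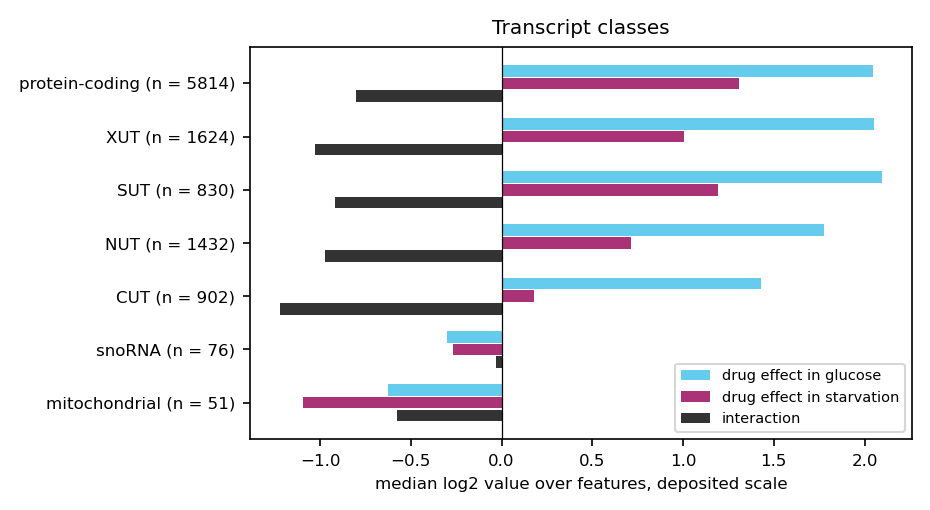
Median log2 drug effect in glucose, drug effect in starvation and interaction (x axis, deposited scale) for 7 transcript classes, with the number of features tested. Bars are medians over features, with no error shown. The mRNA and lncRNA classes have positive drug effects that are smaller in starvation, and snoRNAs have an interaction near 0.

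Among lncRNAs SUT220 was the most positive, at 0.0449 and 0.0321 in glucose, 0.0552 and 0.0452 with the drug, 0.101 and 0.0907 in starvation, and 1.30 and 1.07 in starvation with the drug (3.21 ± 0.31, limma adjusted p = 2.55e-06). It followed the pattern of OYE3, with high values in the starved cells with the drug alone. XUT0181 (2.51 ± 0.96), SUT577 (2.36 ± 0.48) and XUT1425 (2.20 ± 0.54) came next, but their replicates lay apart: SUT577 had 0.113 and 0.200 in starvation with the drug, and XUT0181 lost its call without either starved drug library, the first glucose drug library or the first DMSO library of either medium (adjusted p 0.0547 to 0.162). CUT480 was the most negative, at 0.0141 and 0.0114, 0.392 and 0.374, 0.00700 and 0.00565, and 0.00374 and 0.00500 (-4.87 ± 0.22), high in glucose with the drug alone. XUT0182 and XUT0116 were listed at 0 in both starved libraries with the drug and SUT094 in all 4 starved libraries, so their interactions of -4.84, -4.65 and -4.35 depend on the pseudocount (-2.14, -1.75 and -2.24 with one 10 times larger), and that of SUT094 did not pass at the protein-coding scaling (adjusted p = 0.201).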

How the data were processed

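RNA from 16 libraries was sequenced by the authors, of which the 8 of wild type are compared. Per the labels' protocols, 1 µg of hot-phenol RNA was mixed with diluted ERCC spike-ins, depleted of rRNA and made into stranded libraries. Per the submitters' processing notes, which give no order or role, HISAT2 2.2.0, Trim Galore, DESeq2 and featureCounts 2.0.0 were used with build R64. The deposited values are a signal, reads per nucleotide per feature, scaled by the authors in a way the labels do not state. Rescaling to the spike-ins by median of ratios gave a factor of 1 in each library. The values thus already lie on that scale, and this alternative could only repeat the main fit. The 8 columns of group means were not used (largest difference from the mean 5.2e-12).

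Recovered reads per ORF were whole within 0.02 for only 73.1 to 84.3% of low ORFs, so no count test was run. log2(value + 0.00369), the 5th percentile of positive values, was fitted with limma 3.58.1 in R 4.3.3 (trend; 1 mean per group over 16 libraries; 8 residual and 4.43 prior degrees of freedom) on 11599 features with a mean at or above the pseudocount. Fold changes of low features are therefore understated. Their interactions, which subtract one fold change from another, can be understated or overstated. Features passed at a Benjamini-Hochberg adjusted p under 0.05 over all tested, and values are ± SE. The second scale divided each library by its median of ratios over protein-coding genes.

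The members and the 25 gene lists were chosen with earlier results of these data known. Named genes were the 10 protein-coding genes (mean at least 0.05) and 4 lncRNAs (mean at least 0.02) with the largest passing interaction each way, whose drug effects did not overlap between media, and the extreme passing members of each list, of which 1 is not reported here. Dubious, transposon and auxotrophic loci were left out. The fit was tested on simulated data with interactions of 0.6, 1 and 2 log2 units in 67, 67 and 66 of 11599 features. It recovered 10.4%, 34.3% and 71.2% of them, with 4 false among 81 called. A feature that did not pass may thus still have an interaction. Far more features passed in the real data, so the recovery there can differ. Alternatives were other pseudocounts, filters and scalings, the 4 groups alone, a replicate block, a minimum size and leaving out each library.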

Additional observations from a re-analysis of the deposited data

Results flagged for a closer look

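Each result here is a difference between the drug effect in starvation and that in glucose that passed limma's test of the difference itself. It held for 149 protein-coding genes with an interaction above 0 and 4110 below. Among the first, OYE3 (6.08), RGI2 (3.23), FAT3 (2.65), HBN1 (2.60), ECM4 (2.57), YML131W (2.52), OSI1 (2.49), FIT2 (2.49), ATO2 (2.12) and GAP1 (2.04) had the largest log2 interactions. Among the second, these were PCL1 (-4.39), YMR230W-A (-4.27), YGR079W (-4.13), GFD2 (-3.88), SYO1 (-3.74), BMT6 (-3.72), NRG2 (-3.70), CHA1 (-3.70), YOR381W-A (-3.65) and YNL162W-A (-3.64). The lncRNAs were SUT220 (3.21), XUT0181 (2.51), SUT577 (2.36) and XUT1425 (2.20) on one side and CUT480 (-4.87), XUT0182 (-4.84), XUT0116 (-4.65) and SUT094 (-4.35) on the other. The column prefixes D940 and D1277 go with drug and solvent in both media, and the part of what they stand for was not tested.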

How the results depend on the processing

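The scaling moved the counts most. Scaled to protein-coding genes, interactions above and below 0 numbered 1962 and 2782 of all features and 1498 and 1755 of protein-coding genes, against 239, 7075, 149 and 4110 as deposited. Under it the drug effect had 3705 rises and 2892 falls in glucose and 3588 and 3655 in starvation, and starvation 2877 rises without and 3545 rises and 3959 falls with the drug. Scaled to snoRNAs, which moved the median interaction by -0.0872, interactions above 0 numbered 133 (62 protein-coding), and falls numbered 45 and 634 for the drug in glucose and in starvation and 624 for starvation without it. With a minimum log2 interaction of 1 the counts above and below were 119 and 4615 (62 and 2137 protein-coding), and 541 and 1452 (274 and 696) at the protein-coding scaling. The interaction turned above 0 at that scaling for AFB1 (0.16), HTB1 (0.10), PHO85 (0.40), RPS22B (0.15) and RRN9 (0.26), which follows from the shift of 0.75. The median of the 92 genes raised in the mutants (0.73) was 1.13 with a pseudocount 10 times larger, 1.21 with a cutoff of 2, and 0.66 to 0.85 leaving out 1 library.

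Leaving out 1 library each gave 189 to 303 interactions above and 5963 to 7300 below 0 for all features, 102 to 187 and 3487 to 4352 for protein-coding genes, and 1615 to 1852 and 2348 to 2780 (1283 to 1429 and 1564 to 1728) at the protein-coding scaling. For the drug in glucose there were 10297 to 10675 rises and 66 to 126 falls, in starvation 7171 to 7674 and 805 to 985, and for starvation 853 to 1194 and 3020 to 4043 without and 678 to 852 and 7730 to 8545 with the drug. The lone library of a group was assumed to vary like the others. Same-numbered replicates did not deviate together (correlations -0.0288 to 0.0716 over 6 pairs of groups), and with the replicate number as a block 285 interactions lay above and 7364 below 0 (187 and 4358 protein-coding). The starved drug libraries were the shallowest by the estimated reads, and values near the pseudocount, as of RGI2 and most lncRNAs, limit those results.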
